A study of Homo sapiens with 6 samples.

Results

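The chromatin response of SLFN11-positive leukaemia cells to 4 h of camptothecin was read from 2 ATAC-seq peak lists, each called in 1 library. The cells are CCRF-CEM, an established human T lymphoblast leukaemia line that expresses SLFN11, called parent cells here. One library came from parent cells given DMSO, the solvent, and the other from parent cells given 100 nM camptothecin for 4 h. The series also holds parent cells given 100 nM camptothecin for 2 h and the same 3 treatments in SLFN11-knockout cells made from the parent line, which serve below only for comparison. Entries that overlapped within a list were joined to form 1 peak, and chromosomes 1 to 22 and X were kept. Peaks of both lists together formed 23177 regions, out of 32037 in the 6 lists of the series.

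Each list carries a library code in its peak names, and the same codes stand in brackets in the sample titles. The code puts every list under another sample than the record that holds it. The lists were placed by their codes. By the records, the list called 4 h here is the 2 h sample and the list called DMSO here is the 4 h sample, so that the same pair of lists would compare 2 h with 4 h of camptothecin. The lists recorded as 4 h and DMSO gave a log2 ratio of peak numbers of -0.74, the opposite direction to the 0.61 obtained by code. Every direction below therefore depends on the codes.

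Camptothecin is a plant alkaloid that holds topoisomerase I, the enzyme that relieves DNA supercoiling, on nicked DNA, so that replication forks run into the trapped complex. SLFN11 is a protein of the Schlafen family that is recruited to stressed forks, and its expression sensitises cancer cells to drugs that damage replicating DNA. In ATAC-seq a transposase inserts adapters into DNA that is not covered by nucleosomes, and a peak caller lists stretches with more insertions than their surroundings. Such stretches are mostly promoters, enhancers and other regulatory elements, and promoters of active genes usually give the widest and strongest peaks.

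There was 1 library in each group, so the lists have no replicate spread, no p-value is given for the treatment, and the 95% intervals cover counting error only. They are Wilson intervals of shares, and for a ratio of 2 peak numbers the Wilson interval of the first number's share of both, turned into a ratio. Neighbouring peaks are not independent of each other. Depth was recovered from the fold enrichment and p of each entry. The lowest background, which rises with read number and fragment length, was 1.22 fragments in the DMSO library and 1.26 in the 4 h library, and lay between 1.27 and 1.37 in the other 4. The median number of fragments at a summit was 18 in the DMSO list and 31 in the 4 h list. It was 27 in the parent 2 h list and 19 to 21 in the knockout lists. In the regions it lacked, the parent DMSO list stands apart from the other 5. It alone lacked 2013 regions that all others held, against 62 to 359 for any other list. It is also the shortest list, with 14205 merged peaks against 19167 to 23665 in the others. Genes could not be assigned to peaks, and the T cell markers of the line were not checked, because no annotation or genome of hg19, the build of the lists, was used here.

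The parent 4 h camptothecin list held more and wider peaks than the parent DMSO list. With 1 library each, a difference between the cells cannot be told apart from a difference between the libraries. The 4 h list held 21617 merged peaks and the DMSO list 14205, a ratio of 1.52 and a log2 ratio of 0.61 (0.58 to 0.64). The peaks covered 11.5 Mb at 4 h and 5.69 Mb in DMSO, with a mean width of 532 bp and 401 bp. Of the 4 h peaks, 9247 met no DMSO peak (42.8%, 42.1 to 43.4%) and are called added. Of the DMSO peaks, 1584 met no 4 h peak (11.2%, 10.6 to 11.7%) and are called missing. The change in number was therefore mostly one-sided, with 5.84 peaks added for each one missing. Regions called in both lists numbered 12346, or 53.3% of the union (52.6 to 53.9%).

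The same comparison in SLFN11-knockout cells showed no such excess. The knockout lists held 19167 peaks at 4 h and 19289 in DMSO, a log2 ratio of -0.01 (-0.04 to 0.02). Peaks without a counterpart were about as frequent in both directions, with 20.6% of the 4 h list and 21.4% of the DMSO list. The parent DMSO list was shorter than the knockout DMSO list, and the parent 4 h list was longer than the knockout 4 h list. The difference between the genotypes was not tested, since each has 1 library per treatment. Because the parent DMSO list alone lacked so many regions, the added peaks were also counted against both DMSO lists. Of the 4 h peaks, 5533 (25.6%, 25.0 to 26.2%) were absent from each of them.

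Peaks called in both parent lists were mostly wider in the 4 h list. There were 12051 peaks that met exactly 1 peak of the other list and were met by no further one. Of these, 10660 were wider at 4 h (88.5%), 1357 were narrower and 34 had the same width. Their median width was 651 bp at 4 h and 384 bp in DMSO, and the median difference within a pair was 223 bp. A gain of at least 200 bp was found in 6602 pairs and a loss of that size in 143. In the knockout, 44.9% of 14742 such pairs were wider at 4 h, and the median difference was -12 bp. The parent 2 h list, compared with the same DMSO list, gave nearly the same values as the 4 h list, with 90.2% of pairs wider and a median difference of 214 bp. Between the 4 h and 2 h lists 49.4% of pairs were wider at 4 h, and the median difference was -1 bp. The widening is thus a difference of both parent camptothecin lists from the parent DMSO list. In width the parent DMSO list did not stand apart. Its median over all peaks was 353 bp, against 352 to 381 bp in the knockout lists and 452 and 487 bp in the parent 2 h and 4 h lists. Of the 4 h peaks, 271 spanned 2 or more DMSO peaks, whereas 24 DMSO peaks spanned 2 or more 4 h peaks. Such counts also arose in pairs without widening. Between the parent 4 h and 2 h lists they were 243 and 168, and between the knockout 4 h and DMSO lists 119 and 188. The width of a called peak depends on its signal over background as well as on the open stretch itself, and the summits of the 4 h list held more fragments; the part of this in the widths was not tested.

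**Figure D1:**
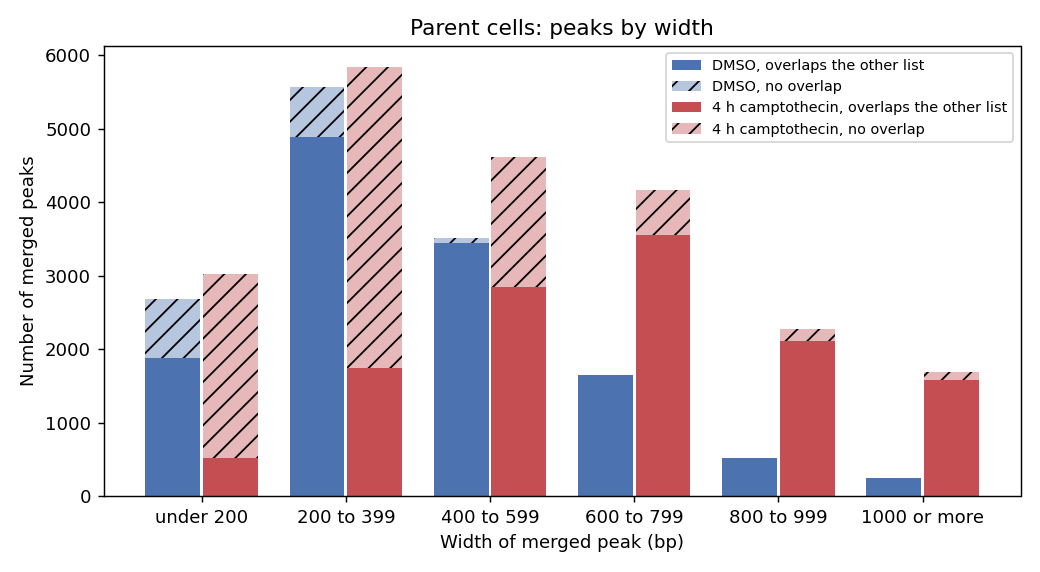
Number of merged peaks (vertical axis) by peak width in bp (horizontal axis) in the parent DMSO list (blue) and the parent 4 h camptothecin list (red). Solid bars are peaks that overlap the other list and hatched bars are peaks that do not, and the classes of 600 bp and above are far fuller at 4 h.

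The lists differed most in their wide peaks. Peaks of 1000 bp or more numbered 1693 at 4 h (7.83% of the list) and 252 in DMSO (1.77%), while the parent 2 h list held 1645 (6.95%) and the knockout lists held 421 at 4 h and 484 in DMSO. In the class from 800 to 999 bp there were 2282 peaks at 4 h and 527 in DMSO. Among peaks under 200 bp the numbers were close, 3027 at 4 h and 2685 in DMSO. The wide peaks of the 4 h list were rarely added ones: 6.20% of those of 1000 bp or more had no DMSO peak (5.15 to 7.45%), against 82.9% of those under 200 bp (81.5 to 84.2%) and 42.8% over the whole list. Most wide peaks at 4 h were thus sites already called in DMSO at a smaller width. In the knockout 4 h list, wide peaks without a knockout DMSO peak were rarer still. They were 0 of 421 at 1000 bp or more, and 0.112% at 800 to 999 bp against 7.36% in the parent 4 h list. In the other direction, none of the 252 parent DMSO peaks of 1000 bp or more was missing at 4 h (a count of 0 allows up to 1.19%). Of the 1584 missing peaks, 810 were under 200 bp.

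Added peaks were of modest height. Their median width was 282 bp and their median fold enrichment, which is the authors' own ratio of summit to local background, was 4.94. The 4 h peaks shared with DMSO had a median of 657 bp and 9.09-fold in the same list. The median added peak held 16 fragments at its summit, with 38 at the 90th percentile, and the median shared peak held 54. Several summits within 1 peak were listed for 14.5% of added and 38.7% of shared peaks. Missing peaks were smaller again, with a median width of 197 bp, 4.66-fold enrichment and 11 fragments within the DMSO list, and only 26 of the 1584 had more than 1 summit. Presence or absence of peaks at this height rests on a few fragments.

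When the 4 h list was ranked by -log10 p and divided into 10 bands of equal size, the added share climbed steadily down the list. It was 0.370% in the most significant band (8 of 2162 peaks), 8.05% in the third, 37.7% in the fifth and 86.6% in the last. The DMSO list began higher, with 1.27% missing in its first band (0.80 to 1.99%, against 0.19 to 0.73% at 4 h), and ended lower, at 30.4% in its last. The knockout lists lay between, at 60.4% of the last band for 4 h and 62.8% for DMSO. In the middle of the list the separation was large: in the fifth band 37.7% of parent 4 h peaks were unmatched (35.7 to 39.8%), against 9.96% of knockout 4 h peaks (8.70 to 11.4%) and 5.35% of parent DMSO peaks (4.29 to 6.64%). Added peaks therefore reached well above the threshold of the 4 h list.

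**Figure D2:**
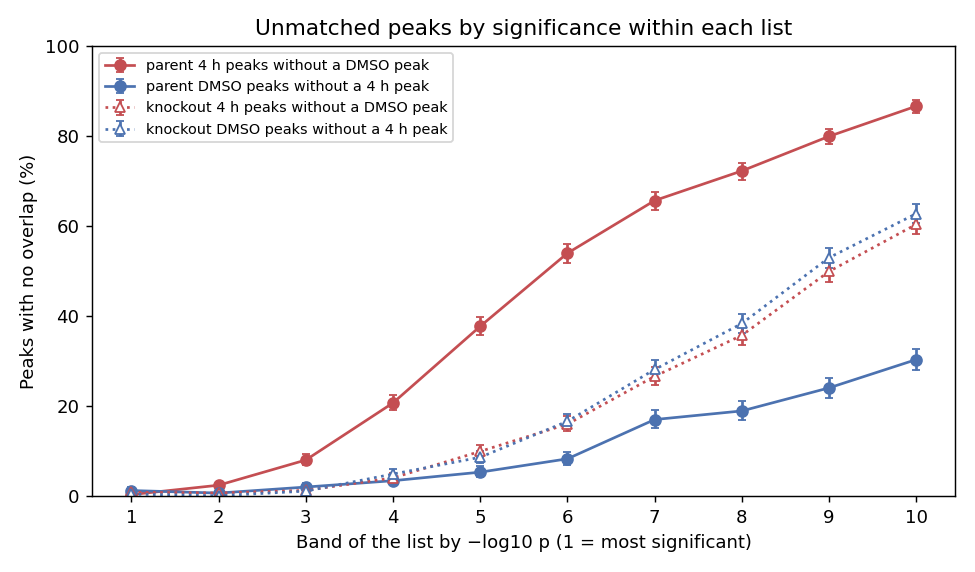
Share of peaks with no overlap in the paired list, in percent (vertical axis), by band of each list ranked by -log10 p (horizontal axis, 1 the most significant). Circles are parent and open triangles knockout lists, bars are 95% Wilson intervals; the parent 4 h curve runs from 0.370 to 86.6% and lies above the other 3 from the second band on.

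Since list length affects how many peaks go unmatched, the lists were also cut to equal length by -log10 p. At 14205 peaks each, the length of the DMSO list, 3468 of the 4 h peaks met no DMSO peak (24.4%, 23.7 to 25.1%) and 3202 DMSO peaks met no 4 h peak (22.5%, 21.9 to 23.2%). Equal length makes the numbers in the 2 directions nearly equal by construction, so it says nothing on a net gain. All of the 3468 were absent from the uncut DMSO list, which was not shortened. Of the 3202, 1618 were in the uncut 4 h list at a lower rank and 1584 were not called at 4 h at all. The cut fell at a -log10 p of 10.96 in the 4 h list, whereas the DMSO list ended at 4.75, and at this length the 4 h peaks still covered 9.44 Mb against 5.69 Mb. In the knockout pair cut to the same length, 2751 of the 4 h peaks (19.4%, 18.7 to 20.0%) were without a DMSO peak. Here the DMSO list was shortened too. Of the 2751, 1306 were in the uncut knockout DMSO list and 1445 were not, so this share is not like that of the parent pair. In the parent pair of 2 h and DMSO, which shares its DMSO list with the main comparison, 21.7% were without a DMSO peak (21.1 to 22.4%).

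The most significant peaks differed more between the lists than the lists as a whole. Among the first 1000 of each list, 507 of the 4 h peaks had no counterpart in the DMSO set (50.7%, 47.6 to 53.8%), and the share was 45.5% at 2000, 31.8% at 5000 and 25.2% at 10000. The knockout pair gave 34.4% at 1000 (31.5 to 37.4%) and 20.2% at 10000. The parent 4 h and 2 h lists, both treated, differed in 43.4% at 1000 but in only 10.9% at 10000. Nearly all of this was a change of order: 504 of the 507 leading 4 h peaks were called in the full DMSO list, and 493 of the 508 unmatched DMSO leaders were called in the full 4 h list. Further down, the first 5000 DMSO peaks held 94.5% of the 1000 leading 4 h peaks (92.9 to 95.8%), while the first 5000 peaks at 4 h held 83.5% of the 1000 leading DMSO peaks (81.1 to 85.7%). A cut at 5000 lies at a -log10 p of 13.5 in the DMSO list and 45.3 in the 4 h list, so these 2 shares are not on one scale.

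**Figure D3:**
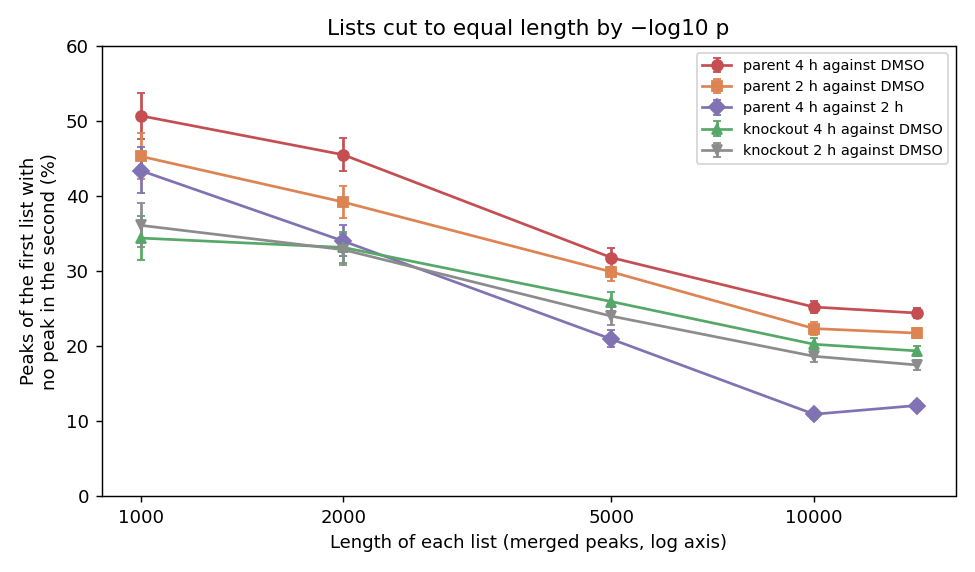
Share of peaks of the first list with no peak in the second, in percent (vertical axis), when both lists are cut to the same number of most significant peaks (horizontal axis, log scale). Bars are 95% Wilson intervals; the pair of parent 4 h and DMSO is the highest at every length plotted, from 50.7% at 1000 peaks to 24.4% at 14205.

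All 23 chromosomes held more peaks at 4 h than in DMSO, but to different degrees. The ratio was highest on chromosome 22, with 488 against 230 peaks (2.12, 1.81 to 2.48), chromosome 17, with 1227 against 586 (2.09, 1.90 to 2.31), and chromosome 19, with 1327 against 697 (1.90, 1.74 to 2.09). It was lowest on chromosome 4, with 938 against 801 (1.17, 1.07 to 1.29), and chromosome 13, with 448 against 357 (1.25, 1.09 to 1.44). Chromosomes 17, 19 and 22 are dense in genes, and chromosomes 4, 13 and 18 are among the poorest. Added peaks made up 54.5% of the 4 h list on chromosome 17 and 30.4% on chromosome 4, and missing peaks 2.15% of the DMSO list on chromosome 19 and 18.8% on chromosome 18, beside 42.8% and 11.2% overall.

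The tilt between chromosomes did not go away when the lists had equal length. There chromosomes 17, 19 and 22 had 1.46, 1.42 and 1.41 times as many peaks at 4 h as in DMSO, with intervals above 1, and chromosomes 4 and 13 had 0.72 and 0.76 times as many, with intervals below 1. Of the 23 chromosomes, 5 had an interval above 1 and 7 below. The other 2 with intervals above 1 were chromosomes 15 and 16, at 1.16 (1.02 to 1.33) and 1.18 (1.05 to 1.32). Those with intervals below 1 were chromosomes 2, 3, 4, 5, 6, 8 and 13. Chromosome 18, at 0.86 (0.72 to 1.04), was not among them. Pooled, in a grouping made after the values were seen, chromosomes 17, 19 and 22 held 2172 peaks of the equal-length 4 h list and 1513 of the DMSO list (1.44, 1.34 to 1.53), and chromosomes 4, 13 and 18 held 1056 and 1398 (0.76, 0.70 to 0.82). The 1000 leading peaks followed this order only in part. They numbered 90 at 4 h and 47 in DMSO on the first 3 of these chromosomes together, and 76 and 135 on the other 3. Chromosome 22 by itself had 3 and 5, chromosome 16 had 43 and 45, and chromosome 3, with an equal-length ratio of 0.88, had 66 and 58.

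In the knockout no chromosome had a ratio whose interval left 1, and the ratios ran from 0.90 on chromosome 22 to 1.06 on chromosomes 4, 5 and 18. Across the 23 chromosomes the ratios of parent and knockout were inversely ordered (Pearson r = -0.75), a description over chromosomes that share their libraries and differ in base composition and gene density. In the parent 2 h list, compared with the same DMSO list, chromosomes 17, 19 and 22 had equal-length ratios of 1.35, 1.27 and 1.27 and chromosomes 4 and 13 had 0.80 and 0.81, each nearer to 1 than at 4 h.

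**Figure D4:**
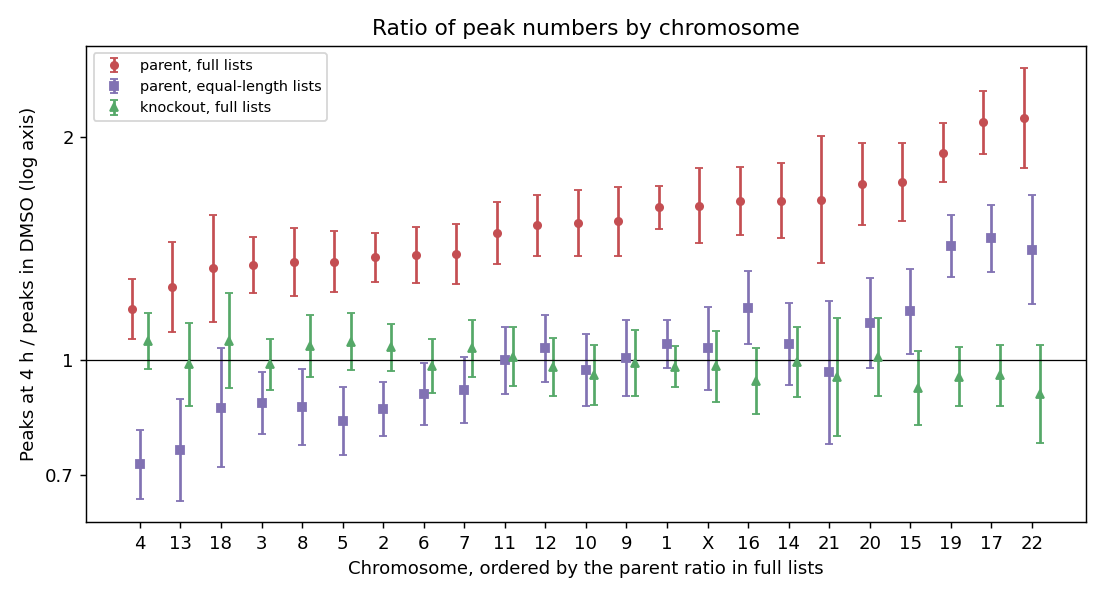
Peaks at 4 h divided by peaks in DMSO (vertical axis, log scale) for each chromosome (horizontal axis, ordered by the parent ratio in full lists), in parent full lists (red circles), parent lists of equal length (purple squares) and knockout full lists (green triangles), with 95% intervals. The parent ratio runs from 1.17 on chromosome 4 to 2.12 on chromosome 22, and the knockout ratios lie between 0.90 and 1.06.

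The same tilt was seen below the scale of chromosomes. Windows of 1 Mb were grouped by the number of peaks in the knockout DMSO list, which did not enter the comparison. In the 95 windows with 21 or more such peaks, the parent lists held 3129 peaks at 4 h and 1839 in DMSO (1.70, 1.61 to 1.80). The ratio was 1.66 where there were 11 to 20 and 1.45 where there were 6 to 10. It was 1.31 at 3 to 5, 1.11 (0.99 to 1.23) at 1 or 2, and 0.94 (0.67 to 1.32) in windows with none. In lists of equal length these ratios became 1.31, 1.10, 0.92, 0.78, 0.61 and 0.26 in the same order. Missing peaks were 3.75% of DMSO peaks in the densest windows and 26.8% in those with 1 or 2. In the knockout pair, with windows grouped by the parent 2 h list, the order was the other way. The ratio rose from 0.95 (0.91 to 0.99) in windows with 21 or more peaks to 1.15 (1.03 to 1.28) in those with 1 or 2. It was 1.58 (1.18 to 2.11) in windows with none, with 115 peaks at 4 h and 73 in DMSO.

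In the full lists, 1684 of 2567 windows with a peak had more peaks at 4 h, 386 had fewer and 497 had the same number. The widest gap was on chromosome 19 between 1 and 2 Mb, with 54 peaks at 4 h and 24 in DMSO, of which 31 were added and 1 was missing. Next came the window from 40 to 41 Mb of chromosome 17, with 43 against 17, and that from 106 to 107 Mb of chromosome 14, with 37 against 12. These windows were picked for their values. In equal-length lists the first 2 still held more peaks at 4 h (41 against 24, and 30 against 17), whereas chromosome 14 had 14 against 12, so most of its extra peaks were among the less significant ones. No window had over 4 fewer peaks at 4 h in the full lists. In lists of equal length, 1178 windows had fewer peaks at 4 h and 732 had more. The same number of peaks lay in fewer windows at 4 h, since 217 windows held DMSO peaks alone and 28 held 4 h peaks alone.

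Few added peaks lay right beside a DMSO peak, but shared 4 h peaks did so less often still. The gap from an added peak to the nearest DMSO peak had a median of 32.7 kb, and 5.35% were within 1 kb (4.91 to 5.83%). Shared 4 h peaks had a median gap of 41.0 kb to the next DMSO peak they did not touch, and 3.96% were within 1 kb (3.63 to 4.32%). Missing peaks were more isolated at the far end, with a median of 41.0 kb to a 4 h peak and a 90th percentile of 358 kb, against 25.7 and 128 kb for shared DMSO peaks.

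Most added peaks had been called in another library. The 2 h list held 6496 of the 9247 (70.2%, 69.3 to 71.2%), the knockout 2 h list 47.8%, the knockout DMSO list 40.2% and the knockout 4 h list 37.8%. These shares were well below those of the 4 h peaks shared with DMSO. Of the shared peaks, the 2 h list held 98.2% and the knockout 2 h, DMSO and 4 h lists held 96.4%, 94.6% and 93.7%. All 4 of these lists held 2015 added peaks (21.8%), and these were the wider ones, with a median of 457 bp and 6.68-fold. None of the 4 held 1968 (21.3%), with a median of 198 bp and 4.23-fold. Both camptothecin lists of the parent but no knockout list held 1560 (16.9%, 16.1 to 17.6%). Longer lists hold more of any set, and the 2 h list is the longest of the 4.

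Missing peaks were spread differently. The 2 h list held 772 of the 1584 (48.7%, 46.3 to 51.2%), so that 812 (51.3%) were absent at both times of camptothecin. Of the missing peaks 393 (24.8%) were in no other list. By comparison, 98.1% of the DMSO peaks shared with 4 h were also in the 2 h list. The knockout DMSO list, the one untreated list among the 4, held 44.9% of the missing peaks, and the treated lists held 45.5 to 48.9%.

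**Figure D5:**
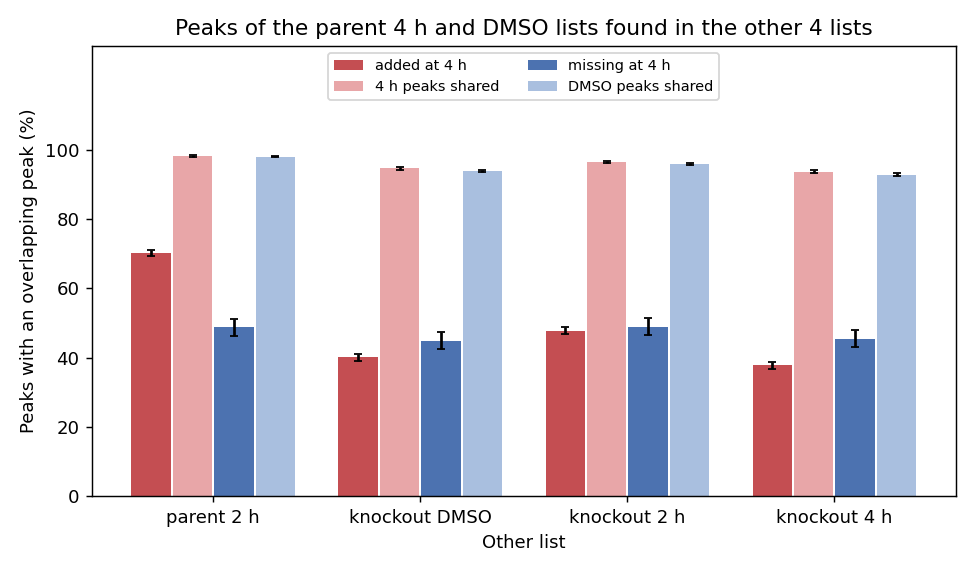
Share of peaks, in percent (vertical axis), with an overlapping peak in each of the 4 lists outside the comparison (horizontal axis), for added and shared peaks of the parent 4 h list (red) and missing and shared peaks of the parent DMSO list (blue), with 95% Wilson intervals. Added peaks are found in the parent 2 h list at 70.2% and in the knockout lists at 37.8 to 47.8%, and missing peaks at 44.9 to 48.9% in all 4.

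The 10 added peaks of highest -log10 p fell into a narrow and a wide kind. Fold enrichments given for these peaks are the authors', each within its own list. The narrow kind comprised 4 peaks under 200 bp, led by chromosome 4, 70296610 to 70296754 of hg19 (145 bp), at 31.6-fold. It was absent only from the parent DMSO list, and stood at 27.2-fold in the parent 2 h list and 23.3, 27.2 and 21.6-fold in the knockout DMSO, 2 h and 4 h lists. The peak on chromosome 2, 191402650 to 191402788 (139 bp, 16.2-fold), was held by both camptothecin lists of the parent, at 13.3-fold at 2 h, and by no knockout list. The peak on chromosome 16, 35239604 to 35239736 (133 bp, 22.8-fold), lies near the centromere and was otherwise called only in the knockout 4 h list (28.0-fold). The fourth, on chromosome 1, 120543922 to 120544074, was called in 4 lists. Narrow high peaks near centromeres often mark repeated sequence, and no filter for repeats was applied here.

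The wide kind comprised 6 peaks of 478 to 1237 bp, the size usual for promoters and enhancers. Chromosome 14, 102976041 to 102976617, held 103 fragments at its summit and was 10.7-fold enriched at 4 h. It stood at 7.27-fold in the parent 2 h list and at 4.64, 6.10 and 3.65-fold in the knockout DMSO, 2 h and 4 h lists, and was not called in parent DMSO. Chromosome 11, 62413698 to 62414300, stood at 13.4-fold at 4 h, 8.14-fold at 2 h and 7.25, 5.96 and 7.64-fold in the knockout lists in the same order. A 13.2-fold peak on chromosome 20, 61903822 to 61904386, was likewise held by every list but parent DMSO. So was the widest, a peak of 1237 bp with 4 summits on chromosome 11, 67055793 to 67057029, at 10.2-fold. The last of this kind, at 13.8-fold, was on chromosome 17, 28705599 to 28706284. The peak on chromosome 17, 1465798 to 1466275 (14.6-fold), was absent from the knockout DMSO list too, and was called at 8.70-fold in the parent 2 h list and at 4.89 and 5.28-fold in the knockout 2 h and 4 h lists. It is thus the one of the 6 that both DMSO lists lacked and all 4 camptothecin lists held.

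The longest added peaks were found among sites of many summits. The longest, on chromosome 6, 27833740 to 27835426, was 1687 bp with 7 summits and 3.40-fold enrichment, and was followed by chromosome 1, 145396555 to 145398184 (1630 bp, 5 summits), and chromosome 6, 107435443 to 107437054 (1612 bp, 3 summits, 7.14-fold). These 3 were present in the 4 other lists, whereas the next in length, on chromosome 17, 73029906 to 73031458 (1553 bp), and chromosome 15, 93631218 to 93632759 (1542 bp), were present in 2 and 3 of them. There were 105 added peaks of 1000 bp or more, and no missing peak reached that width. The longest missing peak, on chromosome 18, measured 794 bp.

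The 10 missing peaks of highest -log10 p were mostly narrow, with 7 under 200 bp. The first was chromosome 1, 565721 to 565856 (136 bp), with only 2.20-fold enrichment over a very high background. It was called at 2.19 to 2.34-fold in all 4 lists outside the comparison. Next were chromosome 2, 92315347 to 92315492 (3.73-fold), and chromosome X, 61815091 to 61815236 (16.0-fold), both near the centromere. Chromosome 1, 121478397 to 121479080 (684 bp, 6.86-fold), also lies beside the centromere and was called in every list but that of 4 h. The peak on chromosome 4, 163342544 to 163342700 (18.1-fold), was shared only with the parent 2 h list (19.3-fold), and that on chromosome 17, 45234285 to 45234449 (17.8-fold), was absent only at 4 h. Of the 10, 8 were called in the 2 h list. Missing peaks were rare among wider DMSO peaks: the 72 missing peaks from 400 to 599 bp made up 2.05% of that class (1.63 to 2.57%), and the 9 from 600 to 799 bp made up 0.544%.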

How the data were processed

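Per the submitters' processing notes, the build was hg19 and the tools named, with no role given, are BWA 0.7.17 and MACS2 2.1.2, with Trimmomatic 0.39, Picard 2.9.2, Trim Galore 0.6.2 and SAMtools 1.8. The sources used here do not give the read shift for the transposase, the read extension, the treatment of duplicates or the background model, and each can move peak edges and numbers. The lists deposited by the authors, 1 per library, give a score (10 times the -log10 q), a fold enrichment (ratio of summit to background), a -log10 p, a -log10 q and a summit offset, in other units than read counts. Every list ends at a q of 0.01.

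Entries outside chromosomes 1 to 22 and X (0.728% of the DMSO list, 0.504% of the 4 h list) were left out. Overlapping entries were merged, keeping the highest value of each column. Overlap means at least 1 bp. Equal-length lists keep the peaks of highest -log10 p (column 8). The pileup and background of an entry follow from fold and p under a Poisson model, and 99.98% of pileups in the DMSO list and 99.99% in the 4 h list came out whole to within 0.02. Entries with a -log10 p of 280 or more were left out of this step. Python 3.11.15, pandas 2.3.3 and SciPy 1.17.1 were used, and the overlap code was tested on simulated data. With 1 library per group no test was run. Named peaks are the 10 of highest -log10 p in each direction, with chromosome 8 passed over; the windows of 1 Mb and the longest peaks were picked after their values were seen. The comparison, lists and rules were chosen with earlier results of these data known. Planned counts of genes by promoter peak were not made, because no hg19 annotation was used here.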

Additional observations from a re-analysis of the deposited data

Results flagged for a closer look

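The parent lists differed in peak number between 4 h and DMSO, and the knockout lists hardly did. The log2 ratio of peak numbers, 4 h over DMSO, was 0.61 (0.58 to 0.64) in the parent pair and -0.0092 (-0.038 to 0.0197) in the knockout pair. Each genotype has 1 library per treatment, so the difference was not tested, and the interval of the knockout value includes 0.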

How the results depend on the processing

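Results by code were compared under alternatives, most of which moved values beyond their counting intervals without turning them. The log2 ratio of peak numbers, 0.61, was 0.80 with a -log10 q of at least 5, 0.69 with peaks of at least 200 bp and 0.74 with entries not merged, and turned to -0.74 with lists placed by record. The added share, 42.8%, was 47.6% with the stricter q, 44.4% with peaks of at least 200 bp, 43.6% when overlaps had to span 50% of the shorter peak and 35.8% with entries not merged. It was 24.4% at equal length by -log10 p, 25.4% at equal length by fold enrichment, 25.2% at 10000 peaks, 31.8% at 5000 and 7.45% by record. The missing share, 11.2%, was 8.40%, 8.98%, 12.5% and 8.85% under the first 4 of these settings in the same order, then 22.5%, 23.7%, 24.6%, 31.7% and 45.4%. Counted against both DMSO lists the added share was 25.6%, and counted against both 4 h lists the missing share was 6.08%; these alternatives were added after the data were seen. The share of added peaks held by the 2 h list, 70.2%, was 79.2% with the stricter q, 74.2% with peaks of at least 200 bp, 67.0% with the 50% overlap, 62.7% at equal length and 23.3% by record. The share of missing peaks lacking at 2 h too, 51.3%, was 54.1% with the 50% overlap, 74.5% at equal length and 39.2% by record, and stayed within its interval under the other 2 settings. Equal-length values compare fewer peaks than the full lists do. The cause of the shifts was not tested. No paired analysis was possible because each group has 1 library. Counts of genes with a promoter peak were not run. The median summits of added and missing peaks rest on only 16 and 11 fragments, and the part of depth in these calls was not tested.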
